A study of Homo sapiens with 12 samples.

Results

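DNA damage response and repair genes were followed in a leukemia line under a glucocorticoid: 52 genes were listed by symbol, and each was read from the probe set that carried its symbol alone and had the highest mean over all 12 arrays. Such a probe set was found for 48 of them, out of 19775 genes with a probe set of their own on the array, and all 48 passed the filter on dim probe sets (3 or more arrays at a log2 of 4 or higher), as did 9947 genes in all. PMS2 lay only on probe sets shared with PMS2CL and is given no value, and FANCA, BRCA2 and FANCD2 were not analysed here. The cells were CCRF-CEM-C7H2, a cloned T-cell acute lymphoblastic leukemia line that is sensitive to glucocorticoids, so that every value below describes 1 line in culture. Treated cells were given 100 nM of the synthetic glucocorticoid dexamethasone, and control cells 0.1% ethanol, its carrier. RNA was taken after 24 h of dexamethasone, 24 h of ethanol, 6 h of dexamethasone and 6 h of ethanol, and each of these 4 groups held 3 Affymetrix HG-U133 Plus 2.0 arrays, 1 per independent experiment (experiments 1, 2 and 3 for the 24 h groups; experiments 0, 1 and 3 for the 6 h groups).

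Cells repair each kind of DNA lesion by its own route. Double-strand breaks are sensed by the MRN complex, which activates the kinase ATM, and are then rejoined directly by end joining or copied from an intact sister by homologous recombination, which needs a replicated chromosome. Mismatch, base excision and nucleotide excision repair replace a stretch of 1 strand, after replication errors, damaged bases and bulky adducts. T cells also use end joining to assemble their antigen receptor genes. Glucocorticoids act through a receptor that binds DNA, and in sensitive lymphoid cells they stop the cell cycle and cause cell death.

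Of 6 T-lineage markers, 5 were well above background on all arrays, with LCK at a log2 of 12.62 to 12.94 and CD3D at 13.87 to 14.36, while CD2 stayed at 2.14 to 2.27. Of 3 B-cell markers read, CD79A was at 9.78 to 11.80 and rose at 24 h by 1.55 (SE 0.19), whereas MS4A1 and PAX5 were at 3.41 or less, as were the 4 myeloid markers and HBB. On each array 22560 to 22999 probe sets (41.3 to 42.1%) lay at or above a log2 of 4. The poly-A spikes, bacterial transcripts added to the RNA before labelling, read higher on the dexamethasone than on the ethanol arrays by 0.34 (log2) at 24 h and 0.47 at 6 h. The hybridization controls, added to the labelled sample, also read higher, by 0.38 at 24 h and 0.34 at 6 h, and what shifts both sets of controls was not tested. Scaling each array to its poly-A spikes, the spike scale below, lowers every difference between dexamethasone and ethanol by 0.34 at 24 h and 0.47 at 6 h. It moves the median of all tested genes to -0.36 at 24 h and -0.47 at 6 h, against -0.02 and -0.002 without it. Differences below are on the scale of the deposited values. By the codes in the labels, the 6 arrays of 24 h formed 1 batch, while at 6 h each treatment had a batch of its own, so batch and treatment cannot be told apart there. In bulk RNA, less of a transcript per cell and fewer cells that make it cannot be told apart either.

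After 24 h of dexamethasone the repair genes had moved in both directions, more often down. Of the 48 members 21 fell, against 28.1% of all tested genes, and 10 rose, against 23.9% of all tested genes (limma, adjusted p under 0.05). The 21 were 43.8% of the members and the 10 were 20.8%. The median difference was -0.18 on the log2 scale over the members and -0.02 over all tested genes. On the spike scale 30 members fell, beside 47.0% of all genes, and 4 rose, beside 9.65%. The genes that rose on both scales were NBN, ATM, BARD1 and ERCC5, and all 21 falls were also called on the spike scale. The 9 further falls there were BLM, FANCG, FANCL, CHEK1, MRE11, RAD50, XRCC5, PARP1 and ERCC2. Members above 0 that turned negative on the spike scale were POLB, which had been called, and BRCA1 (-0.28), RAD52 (-0.03), FANCI (-0.22), MSH3 (-0.25), OGG1 (-0.14), XPA (-0.28) and ERCC3 (-0.17), which had not. With the experiment as a block 24 members fell, beside 32.4% of all genes, and 12 rose, beside 28.8%. In the members called at 24 h, the 3 dexamethasone and the 3 ethanol values did not overlap, but such separation is largely what the test selects for. BRCA1, BLM, CHEK1 and MRE11, which were not called, did not overlap either. The share of all tested genes without overlap was not counted. The rises were largest in NBN, a sensor of double-strand breaks, and the falls in XRCC3, a recombination protein, and the members differed widely within a pathway. The plot of the 24 h differences by pathway shows each member with its standard error.

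**Figure D1:**
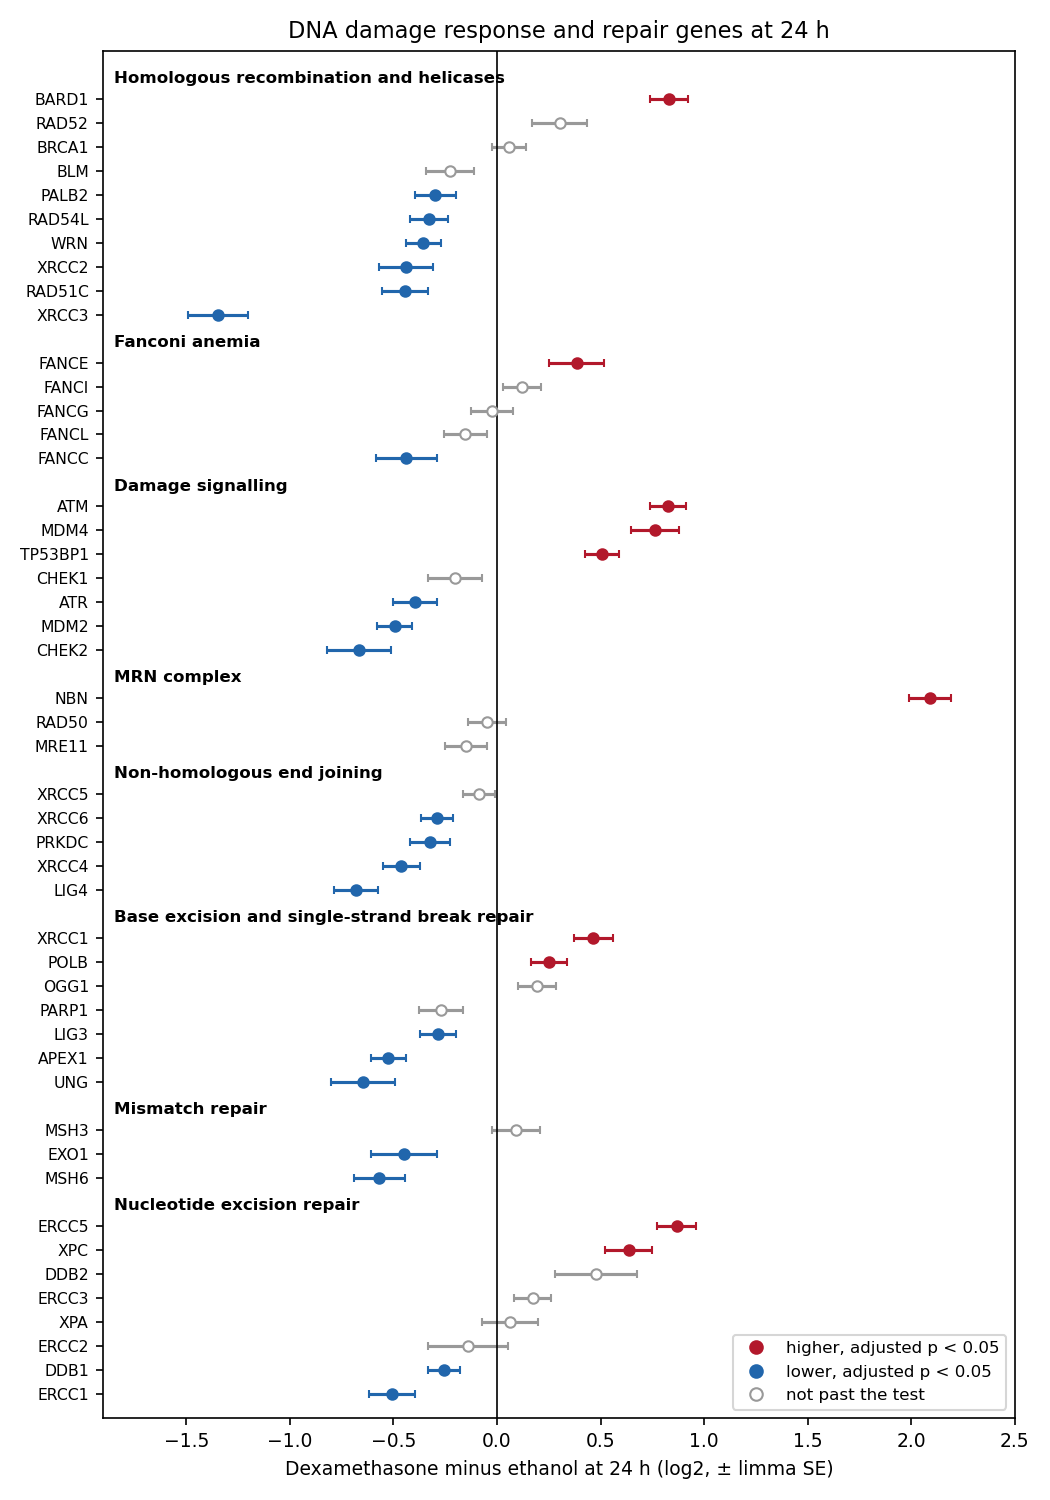
Difference between dexamethasone and ethanol at 24 h (log2, horizontal axis) for the 48 members, grouped by repair pathway, with limma's standard error as bars and colour by the test. NBN stands at 2.09 and XRCC3 at -1.35, and the other members lie between -0.68 and 0.87.

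Among members with a listed promoter, those of the 2 that rose most and the 2 that fell most at 24 h are shown because these genes responded in opposite directions. APEX1 was added after its matches had been seen. Each line gives the 250 bases before the gene's annotated start in RefSeq's GRCh38.p14 table, 5′ to 3′ on the gene's own strand, and capitals mark matches to a motif searched on both strands. The motifs were the E-box CACGTG, bound by the MYC family, TTCCCGC or TTTGGCGC, bound by E2F factors of the S-phase program, and AGAACA, a half-site of the glucocorticoid receptor. CACGTG reads the same on both strands, and no motif holds another. The ERCC5 promoter lies at chr13:102845782-102846031 (+), that of BARD1 at chr2:214809684-214809933 (-), that of XRCC3 at chr14:103715452-103715701 (-), that of LIG4 at chr13:108218350-108218599 (-) and that of APEX1 at chr14:20454976-20455225 (+).
ERCC5: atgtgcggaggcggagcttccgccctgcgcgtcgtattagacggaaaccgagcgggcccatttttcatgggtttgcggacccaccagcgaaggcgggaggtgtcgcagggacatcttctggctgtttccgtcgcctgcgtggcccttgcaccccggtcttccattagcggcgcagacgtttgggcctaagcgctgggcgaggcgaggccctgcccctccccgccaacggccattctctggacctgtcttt
BARD1: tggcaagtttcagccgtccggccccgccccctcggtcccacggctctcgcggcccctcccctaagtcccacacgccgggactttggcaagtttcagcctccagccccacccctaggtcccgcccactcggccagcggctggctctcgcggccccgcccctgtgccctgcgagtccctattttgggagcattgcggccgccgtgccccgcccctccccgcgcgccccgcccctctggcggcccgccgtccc
XRCC3: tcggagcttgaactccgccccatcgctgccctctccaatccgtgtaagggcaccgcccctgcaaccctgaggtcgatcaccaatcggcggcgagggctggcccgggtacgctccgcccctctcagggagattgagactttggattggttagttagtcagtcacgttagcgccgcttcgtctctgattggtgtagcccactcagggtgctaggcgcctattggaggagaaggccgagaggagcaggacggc
LIG4: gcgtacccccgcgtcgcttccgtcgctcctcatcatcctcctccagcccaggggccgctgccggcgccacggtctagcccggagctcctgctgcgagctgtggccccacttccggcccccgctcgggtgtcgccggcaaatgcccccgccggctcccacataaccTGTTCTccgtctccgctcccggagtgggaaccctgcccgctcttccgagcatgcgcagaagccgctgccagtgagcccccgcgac
APEX1: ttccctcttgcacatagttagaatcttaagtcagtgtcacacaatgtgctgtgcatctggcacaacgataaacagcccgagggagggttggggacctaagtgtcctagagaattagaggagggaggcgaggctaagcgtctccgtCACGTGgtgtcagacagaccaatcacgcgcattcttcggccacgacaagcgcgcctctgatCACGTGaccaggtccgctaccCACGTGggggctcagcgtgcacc

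The LIG4 window held 1 receptor half-site, read as TGTTCT on the printed strand, 85 bases before the start. The APEX1 window held the E-box 3 times, at 105, 44 and 23 bases before the start. No motif letters lay in the ERCC5, BARD1 and XRCC3 windows. Promoters were listed for 42 of the 48 members, not for WRN, FANCI, NBN, XRCC5, PRKDC and POLB. The E2F motifs lay in 11 of these 42 (26.2%), against 10.2% of the promoters of tested genes and 6.07% of all promoters in the table. They lay in 3 of the 19 that fell at 24 h (RAD54L, FANCC and MDM2), in 2 of the 8 that rose (XRCC1 and XPC) and in 6 of the 15 that did not pass the test. The E-box lay in 2 of 42 (4.76%; APEX1 and LIG3), against 9.51% of the promoters of tested genes and 6.49% of all. The half-site lay in 4 of 42 (9.52%; LIG4, MSH3, PARP1 and XPC), against 7.78% and 12.4%. A match describes letters in a window and is not a bound site.

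Of the MRN complex, which holds broken ends together and recruits ATM, only the NBN subunit passed the test. NBN (8:89933331-89984667 in GRCh38.p14) encodes nibrin, which ties the nuclease to ATM. It read a log2 of 12.86, 12.68 and 12.83 on the dexamethasone arrays of 24 h, against 10.65, 10.69 and 10.76 on the ethanol arrays of 24 h. All dexamethasone values lay far above all ethanol values, and the rise was 2.09 (SE 0.10; 4.25-fold; limma, adjusted p = 7.85e-08), or 1.75 on the spike scale. At 6 h it read 11.21, 11.41 and 11.16 with dexamethasone, against 10.63, 10.92 and 10.93 with ethanol. These groups did not overlap, and the rise of 0.43 (SE 0.10, adjusted p = 0.0309) turned to -0.035 on the spike scale and ended, with an adjusted p of up to 0.0979, without the dexamethasone array of experiment 0 or 1, the ethanol array of experiment 0 or the 24 h ethanol array of experiment 2. It also ended with no filter on dim probe sets (0.0514) and with only the 6 h arrays in the fit (0.143). Of the other 4 tested NBN probe sets, 3 rose at 24 h, while the fifth differed by -0.004.

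The partners of NBN showed no such change. MRE11, the nuclease, read 8.37, 8.36 and 8.25 with dexamethasone at 24 h, against 8.38, 8.56 and 8.49 with ethanol. RAD50, the tether, read 7.94, 7.90 and 7.85 with dexamethasone at 24 h, against 7.84, 8.03 and 7.96 with ethanol. Neither difference passed the test, at -0.15 (SE 0.10, adjusted p = 0.251) for MRE11 and -0.05 (SE 0.09, adjusted p = 0.71) for RAD50, and on the spike scale both were called lower (adjusted p = 0.00619 and 0.0286).

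**Figure D2:**
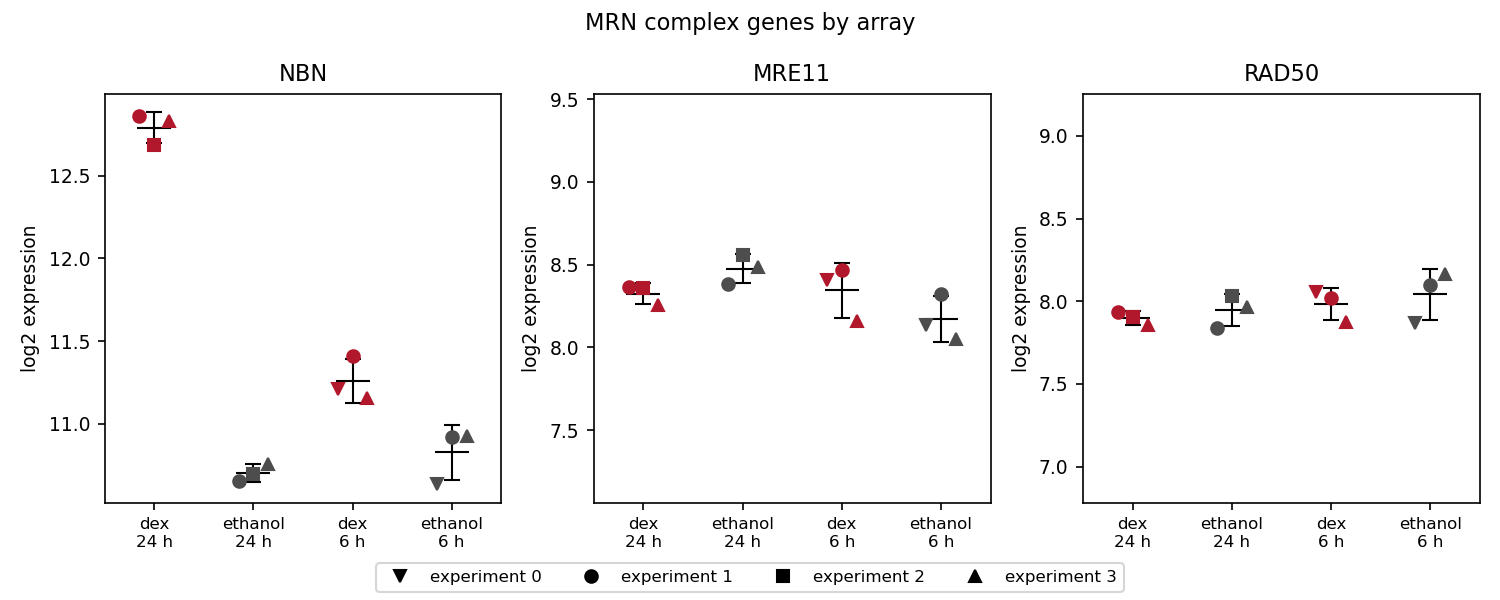
Log2 expression of the MRN genes on each array, with group means and SDs as black lines and the experiment as the marker shape; the vertical axes differ in level. NBN stood at 12.68 to 12.86 on the 24 h dexamethasone arrays and at 10.65 to 10.76 on the 24 h ethanol arrays, while MRE11 stayed between 8.05 and 8.56 and RAD50 between 7.84 and 8.16 on all arrays.

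In homologous recombination and its helicases, 6 of 10 members fell at 24 h, against 28.1% of all tested genes, and 1 rose, against 23.9%. The median was -0.31, against -0.02 over all tested genes. XRCC3 (14:103697617-103715451), a recombination protein that acts in strand exchange, read 5.22, 5.73 and 5.84 with dexamethasone at 24 h, against 6.88, 7.03 and 6.92 with ethanol. Every dexamethasone array was lower by more than a log2 of 1 than every ethanol array, and the fall was -1.35 (SE 0.14; limma, adjusted p = 2.29e-05), a change of -60.7%. At 6 h XRCC3 had read 7.26, 7.21 and 7.45 with dexamethasone, against 7.17, 7.11 and 7.29 with ethanol, where the groups overlapped.

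BARD1 (2:214725646-214809683), the partner that forms a ubiquitin ligase with BRCA1, moved the other way. It read 11.21, 11.24 and 11.32 with dexamethasone at 24 h, against 10.40, 10.51 and 10.37 with ethanol. The groups were well apart, and the rise was 0.83 (SE 0.09; 1.78-fold; adjusted p = 2.89e-05), or 0.49 on the spike scale. BRCA1 itself, which directs broken ends to recombination, read 9.18, 9.17 and 9.15 with dexamethasone at 24 h, against 9.06, 9.12 and 9.14 with ethanol. That difference of 0.06 (SE 0.08) did not pass the test (adjusted p = 0.593).

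WRN, a helicase whose loss causes Werner syndrome, read 7.78, 7.71 and 7.66 with dexamethasone at 24 h, against 7.93, 8.14 and 8.15 with ethanol, a fall of -0.35 (SE 0.08, adjusted p = 0.00515). Falls were also called in 4 further members. RAD51C and XRCC2, which also act in recombination, fell by 0.44 each, RAD54L, a motor protein of strand invasion, by 0.33, and PALB2, which bridges the BRCA proteins, by 0.30. The adjusted p ran from 0.00623 for RAD51C to 0.0282 for PALB2. The PALB2 call ended without any of 5 of the 24 h arrays (the exception was the dexamethasone array of experiment 2), with up to 0.0993, and the XRCC2 call without the dexamethasone array of experiment 1 (0.0522). RAD52, a strand annealing protein, at 0.30 and BLM, the Bloom syndrome helicase, at -0.23 did not pass (adjusted p = 0.0831 and 0.131). The block by experiment called both (0.0314 and 0.0255), and RAD52 turned to -0.03 on the spike scale.

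Recombination genes are made mostly in cycling cells, so the genes of DNA replication are given beside them. Of 15 replication genes 5 fell at 24 h and none rose by limma (7 passed an unadjusted p of 0.05), with a median of -0.27. The 5 were 33.3% of the list, against 28.1% of all tested genes. With the experiment as a block 9 of them fell (60.0%, beside 32.4% of all genes). MCM4, a subunit of the replicative helicase, read 11.14, 11.36 and 10.96 with dexamethasone, against 11.90, 11.99 and 11.82 with ethanol, and fell by 0.75 (SE 0.10). GINS2, another helicase factor, fell by 0.79, CDC6, a loader of that helicase, by 0.63, and MCM2, a further subunit, by 0.49. At 6 h none of the 15 was called, against 2.72% of all tested genes called higher and 3.77% lower, and the median was 0.12. An unadjusted p of 0.05 was passed by 2, and 1 was called higher with the experiment as a block (6.67%, beside 6.08% of all genes). What part the share of replicating cells had in the falls of the repair genes was not tested.

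The Fanconi anemia proteins, which unhook crosslinks between the strands, gave 1 fall and 1 rise among 5 members. Each direction held 20.0%, against 28.1% of all tested genes that fell and 23.9% that rose. FANCC, of the core complex, read 6.22, 6.08 and 5.61 with dexamethasone at 24 h, against 6.46, 6.48 and 6.29 with ethanol, a fall of -0.44 (SE 0.15, adjusted p = 0.032). FANCE, which links that complex to its substrate, read 6.17, 6.59 and 6.05 with dexamethasone at 24 h, against 5.79, 6.04 and 5.82 with ethanol, a rise of 0.38 (SE 0.13, adjusted p = 0.035) that shrank to 0.05 on the spike scale. The groups of both genes lay close to each other. Both calls ended in single fits: FANCC without the dexamethasone array of experiment 3 or the ethanol array of experiment 1 or 2 (up to 0.112), FANCE without the dexamethasone array of experiment 2 or the ethanol array of experiment 1 or 3 (up to 0.113), and both with no filter (0.0821 and 0.0825) or with only the 24 h arrays (0.0641 and 0.081). FANCE also missed the test with cyclic loess (0.0553) and with a trended, robust variance prior (0.0508). FANCG, FANCI and FANCL, members of the core complex and of the pair it modifies, differed by -0.02, 0.12 and -0.15 and did not pass.

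Damage signalling was split: of 7 members 3 rose and 3 fell (42.9% each, against 23.9% and 28.1% of all tested genes). ATM (11:108223067-108369102), the kinase activated by double-strand breaks, read 9.75, 9.53 and 9.48 with dexamethasone at 24 h, against 8.82, 8.82 and 8.64 with ethanol. The groups did not overlap, and the rise was 0.83 (SE 0.09; 1.77-fold; adjusted p = 2.13e-05), or 0.49 on the spike scale. TP53BP1, which protects broken ends from resection, read 9.44, 9.45 and 9.56 with dexamethasone at 24 h, against 8.84, 9.05 and 9.04 with ethanol, a rise of 0.51 (SE 0.08, adjusted p = 0.000423). On the spike scale this rise was 0.17 and no longer called (0.298).

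The 2 main inhibitors of p53 moved in opposite directions. MDM4, which binds p53 and blocks its activity, read 10.94, 10.74 and 11.00 with dexamethasone at 24 h, against 10.16, 10.12 and 10.11 with ethanol, a rise of 0.76 (SE 0.11, adjusted p = 0.000262) that missed the test on the spike scale (0.43, adjusted p = 0.0519). MDM2, the ubiquitin ligase that marks p53 for degradation and is itself a p53 target, read 9.34, 9.52 and 9.60 with dexamethasone at 24 h, against 9.99, 10.03 and 9.92 with ethanol. All 3 dexamethasone values were below the ethanol values, and the fall was -0.49 (SE 0.09, adjusted p = 0.000663).

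Of the other kinases of the pathway, CHEK2 and ATR fell. CHEK2, the checkpoint kinase that ATM activates, read 8.06, 8.39 and 7.93 with dexamethasone at 24 h, against 8.74, 8.90 and 8.74 with ethanol, a fall of -0.67 (SE 0.15, adjusted p = 0.00446). ATR, the kinase of stalled replication forks, read 9.76, 9.77 and 9.55 with dexamethasone at 24 h, against 10.07, 10.10 and 10.11 with ethanol, a fall of -0.40 (SE 0.11, adjusted p = 0.0106). CHEK1, the kinase under ATR, differed by -0.20 (adjusted p = 0.234), and the block by experiment brought it to 0.047.

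Of 14 measured p53 target genes 6 rose (42.9%, against 23.9% of all tested genes) and 1 fell (7.14%, against 28.1%) at 24 h, with a median of 0.43. On the spike scale 4 rose (28.6%, beside 9.65% of all genes), 3 fell (21.4%, beside 47.0%) and the median was 0.10. With the experiment as a block 8 rose (57.1%, beside 28.8% of all genes) and 1 fell (7.14%, beside 32.4%). TP53INP1, a stress-induced p53 cofactor, read 9.24, 8.65 and 9.48 with dexamethasone, against 2.65, 2.73 and 2.53 with ethanol. All ethanol values were below the filter, so that it was at least 34.9-fold higher measured against a log2 of 4. TP53INP1 is counted among the 6 that rose but passed the filter only through the 24 h dexamethasone arrays, so its test gives no support of its own. SESN1, a stress protein that restrains mTOR signalling, read 9.60, 9.43 and 9.82 with dexamethasone at 24 h, against 6.12, 5.71 and 6.04 with ethanol, a rise of 3.66 (SE 0.15). AEN, a nuclease of apoptosis, fell by 1.39 (SE 0.16), and ZMAT3, an RNA-binding protein, rose by 1.01 (SE 0.16). At 6 h SESN1 was the one of the 14 that was called (7.14%, against 2.72% of all tested genes called higher), with a rise of 1.17 (limma, adjusted p = 0.001). The block by experiment called 2 of them higher (14.3%, beside 6.08% of all genes).

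In non-homologous end joining, which seals broken ends with little regard to sequence, 4 of 5 members fell at 24 h, and the median was -0.33. These 4 were 80.0% of the pathway's members, against 28.1% of all tested genes. LIG4 (13:108207442-108218349), the ligase of this pathway, read 9.01, 8.98 and 8.94 with dexamethasone at 24 h, against 9.77, 9.75 and 9.44 with ethanol, a fall of -0.68 (SE 0.10; a change of -37.6%; adjusted p = 0.000324). XRCC4, the scaffold that LIG4 needs, read 7.34, 7.40 and 7.55 with dexamethasone at 24 h, against 7.98, 7.93 and 7.76 with ethanol, a fall of -0.46 (SE 0.09, adjusted p = 0.00132). Both partners of the ligase complex were thus lower with dexamethasone, with no overlap between the groups. The other 3 tested XRCC4 probe sets also lay below 0, the nearest at -0.21, but only 1 of them was called.

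Of the 3 subunits of DNA-dependent protein kinase, XRCC6 and PRKDC fell. XRCC6, the Ku70 subunit, read 13.00, 13.20 and 13.00 with dexamethasone at 24 h, against 13.28, 13.41 and 13.38 with ethanol, a fall of -0.29 (SE 0.08, adjusted p = 0.00999), and its other tested probe set fell by 0.73. PRKDC, the catalytic subunit of DNA-dependent protein kinase, read 11.60, 11.74 and 11.48 with dexamethasone at 24 h, against 11.82, 11.96 and 12.01 with ethanol, a fall of -0.33 (SE 0.10, adjusted p = 0.0167). The PRKDC call ended without the dexamethasone array of experiment 3 or the ethanol array of experiment 2 or 3 (up to 0.0687) and with cyclic loess (-0.21, 0.0819). XRCC5, the Ku80 subunit, differed by -0.09 (SE 0.08, adjusted p = 0.397) and was not called.

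In mismatch repair, 2 of 3 members fell (66.7%, against 28.1% of all tested genes). MSH6, which recognises mismatched bases, read 11.26, 11.64 and 11.27 with dexamethasone at 24 h, against 11.92, 12.06 and 11.89 with ethanol, a fall of -0.57 (SE 0.12, adjusted p = 0.00314). EXO1, the nuclease that removes the faulty strand, read 10.04, 10.35 and 9.92 with dexamethasone at 24 h, against 10.51, 10.67 and 10.47 with ethanol, a fall of -0.45 (SE 0.16, adjusted p = 0.0391). The groups of both genes were apart, though the EXO1 call ended without any of 5 of the 24 h arrays (the exception was the dexamethasone array of experiment 2; up to 0.138), with no filter (0.1) and with cyclic loess (-0.34, 0.101). MSH3, the alternative partner in recognition, differed by 0.09 on its brighter probe set and did not pass (adjusted p = 0.549). Its other tested probe set fell by 0.20 (adjusted p = 0.0249).

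Base excision and single-strand break repair gave 3 falls (42.9%, against 28.1% of all tested genes) and 2 rises (28.6%, against 23.9%) among 7 members. UNG and APEX1, which act in turn on uracil in DNA, both fell. UNG, which cuts uracil out of DNA, read 10.80, 11.24 and 10.75 with dexamethasone at 24 h, against 11.51, 11.75 and 11.48 with ethanol, a fall of -0.65 (SE 0.15, adjusted p = 0.00542). APEX1, which nicks the site left behind and whose promoter held the E-box 3 times, read 12.11, 12.36 and 12.18 with dexamethasone at 24 h, against 12.64, 12.76 and 12.82 with ethanol, a fall of -0.53 (SE 0.09, adjusted p = 0.00045). LIG3, a ligase that closes the gap, fell by 0.29 (SE 0.09, adjusted p = 0.0204), a call that ended without the dexamethasone array of experiment 1 or the ethanol array of experiment 3 (up to 0.0802).

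The scaffold and the polymerase of that route rose on the deposited scale. XRCC1, which holds the enzymes at a nick and binds LIG3, read 8.17, 8.22 and 8.30 with dexamethasone at 24 h, against 7.66, 7.83 and 7.82 with ethanol, a rise of 0.46 (SE 0.09, adjusted p = 0.00192) that was 0.13 and not called on the spike scale (0.419). POLB, the gap-filling polymerase, rose by 0.25 (SE 0.09, adjusted p = 0.0372), turned to -0.087 on the spike scale (0.615), missed the test with median centring (0.0873) and ended without any of 5 of the 24 h arrays (the exception was the ethanol array of experiment 2; up to 0.124). PARP1, the sensor of nicks, at -0.27 and OGG1, which removes oxidised guanine, at 0.19 did not pass (adjusted p = 0.0579 and 0.11). PARP1 did with the experiment as a block (0.0476), and OGG1 turned to -0.14 on the spike scale.

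Nucleotide excision repair had a median of 0.12 at 24 h (-0.22 on the spike scale), with 2 rises, 2 falls and 4 members that did not pass. Each direction held 25.0%, near the 23.9% of all tested genes that rose and the 28.1% that fell. ERCC5 (13:102846032-102875995), the XPG nuclease that cuts on the 3′ side of a lesion, read 10.54, 10.50 and 10.53 with dexamethasone at 24 h, against 9.64, 9.57 and 9.75 with ethanol. The groups were far apart for their spread, and the rise was 0.87 (SE 0.09; 1.83-fold; adjusted p = 2.65e-05), or 0.53 on the spike scale. ERCC1, part of the nuclease that cuts on the 5′ side, read 9.74, 9.92 and 10.01 with dexamethasone at 24 h, against 10.35, 10.27 and 10.57 with ethanol, a fall of -0.51 (SE 0.11, adjusted p = 0.00314). ERCC5 and ERCC1 thus differed in opposite directions. Of the other 2 tested ERCC1 probe sets 1 was called lower as well. ERCC4, the partner of ERCC1 in that nuclease, differed by 0.10 (SE 0.12) and was not called (limma, adjusted p = 0.521).

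The proteins that find the lesion also differed among themselves. XPC, which senses distorted DNA, read 8.04, 8.17 and 8.40 with dexamethasone at 24 h, against 7.47, 7.61 and 7.62 with ethanol, a rise of 0.64 (SE 0.11, adjusted p = 0.000862) that missed the test on the spike scale (0.30, 0.0989). DDB1, the adaptor of the ultraviolet damage ligase, fell by 0.25 (SE 0.08, adjusted p = 0.0183), a call that ended without the dexamethasone array of experiment 1 or 3 or the ethanol array of experiment 2 (up to 0.0678) and with cyclic loess (-0.14, 0.141). DDB2, its lesion-binding partner, differed by 0.48 (SE 0.20) without passing (adjusted p = 0.0711), and passed with the experiment as a block (0.0464). XPA, ERCC2 and ERCC3, which verify and open the lesion, lay between -0.14 and 0.17 and did not pass.

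**Figure D3:**
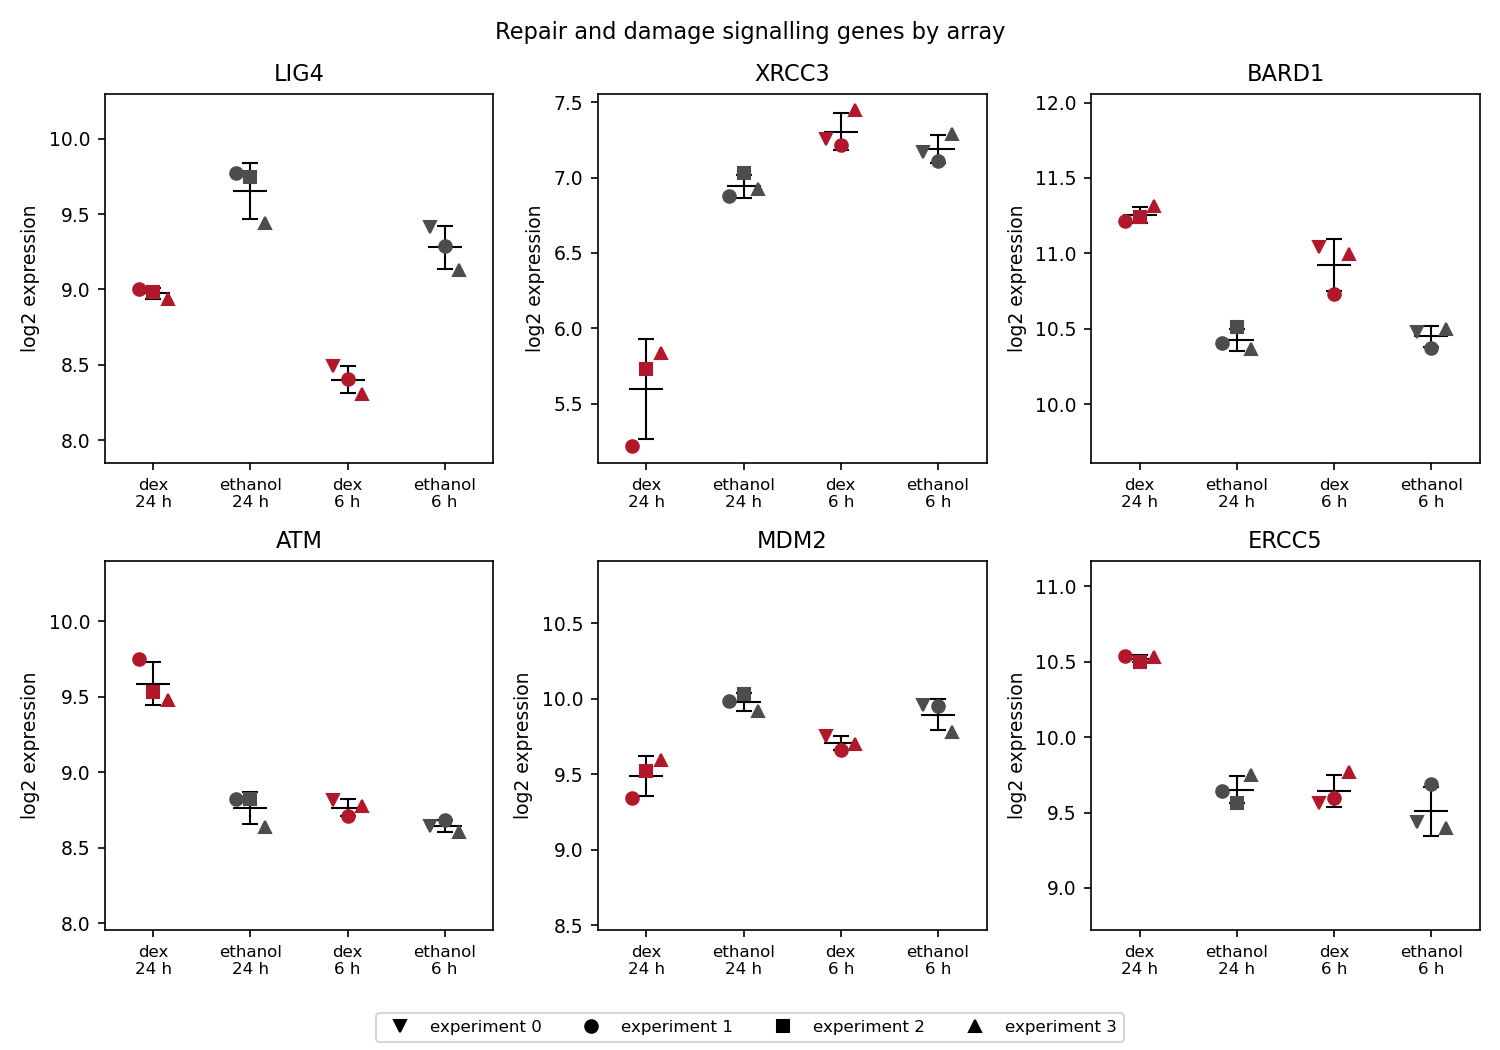
Log2 expression of LIG4, XRCC3, BARD1, ATM, MDM2 and ERCC5 on each array, with group means and SDs as black lines and the experiment as the marker shape; the vertical axes differ in level. LIG4, BARD1, ATM and MDM2 did not overlap with ethanol at either time, though ATM and MDM2 were not called at 6 h. XRCC3 at 5.22 to 5.84 and ERCC5 at 10.50 to 10.54 left the range of the other groups only on the 24 h dexamethasone arrays.

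Across the wider repair machinery, 68 further genes of DNA repair, direct reversal and translesion synthesis included, were measured, of 77 listed. At 24 h 22 of them fell (32.4%, against 28.1% of all tested genes) and 9 rose (13.2%, against 23.9%), with a median of -0.17. On the spike scale 39 fell (57.4%, beside 47.0% of all genes) and 1 rose (1.47%, beside 9.65%). With the experiment as a block 28 fell (41.2%, beside 32.4% of all genes) and 12 rose (17.6%, beside 28.8%). ALKBH2, which removes methyl groups from DNA bases, read 5.25, 5.74 and 5.31 with dexamethasone, against 7.48, 7.57 and 7.63 with ethanol, a fall of -2.13 (SE 0.14, adjusted p = 5.6e-07). ERCC6, which starts repair at stalled transcription, read 6.30, 6.07 and 6.22 with dexamethasone, against 5.12, 5.21 and 5.11 with ethanol, a rise of 1.05 (SE 0.15). In both genes the groups were wide apart. NTHL1, a glycosylase of oxidised bases, fell by 1.24 (SE 0.12), RNF168, a ubiquitin ligase at broken ends, fell by 0.80 (SE 0.09), and REV3L, a translesion polymerase, rose by 0.51 (SE 0.07), or 0.17 and not called on the spike scale. At 6 h 3 of the 68 fell (4.41%, against 3.77% of all tested genes) and 1 rose (1.47%, against 2.72%). With the experiment as a block 7 fell (10.3%, beside 7.53% of all genes) and 2 rose (2.94%, beside 6.08%).

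At 6 h few repair genes had moved. Of the 48 members 2 rose, against 2.72% of all tested genes, and 1 fell, against 3.77%, and 9 passed an unadjusted p of 0.05. These shares are near those of all genes, and the median was 0.05. With the experiment as a block 3 rose, beside 6.08% of all genes, and 2 fell, beside 7.53%: XRCC1 was then called higher (adjusted p = 0.0282) and CHEK2 lower (0.0281). On the spike scale 32 fell, beside 68.0% of all genes, and none rose, beside 1.14% (36 passed an unadjusted p of 0.05).

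LIG4 was the member that fell. It read 8.49, 8.41 and 8.31 with dexamethasone at 6 h, against 9.41, 9.29 and 9.13 with ethanol. The groups did not overlap, and the fall was -0.88 (SE 0.10; a change of -45.5%; adjusted p = 0.000684). It was called in every fit run, those without 1 array and that on the spike scale included. BARD1 read 11.04, 10.73 and 11.00 with dexamethasone at 6 h, against 10.48, 10.37 and 10.50 with ethanol, a rise of 0.47 (SE 0.09, adjusted p = 0.0124) that came to 0.005 on the spike scale (0.978) and was not called with only the 6 h arrays in the fit (0.0942). The third call was NBN, whose 6 h values are given above. All 3 comparisons cross the array batches of that time.

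The responses at the 2 times differed in 12 members, tested as dexamethasone minus ethanol at 24 h less the same at 6 h. The difference was positive in 5, against 12.3% of all tested genes, and negative in 7, against 14.8%, and the median was -0.24. NBN differed by 1.66 (SE 0.14, adjusted p = 3.41e-05), with a rise of 2.09 at 24 h and of 0.43 at 6 h. XRCC3 differed by -1.46 (SE 0.20, adjusted p = 0.000609), with a fall of -1.35 at 24 h and 0.12, not called, at 6 h. ATM and ERCC5 differed by 0.71 and 0.73 (SE 0.12 and 0.13), and neither had been called at 6 h, where they stood at 0.12 and 0.13. TP53BP1 differed by 0.60 (SE 0.11), at 0.51 and called at 24 h and at -0.10 and not called at 6 h. LIG4, by contrast, differed by 0.19 (SE 0.15, adjusted p = 0.387) with falls at both times, and BARD1 by 0.36 (SE 0.13, adjusted p = 0.0706) with rises at both; the block by experiment called that of BARD1 (0.0354).

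The count of negative differences, 7 with all arrays, was 2 without the 24 h dexamethasone array of experiment 1 or 3, the 24 h ethanol array of experiment 2 or 3, the 6 h dexamethasone array of experiment 3 or the 6 h ethanol array of experiment 0. It was 3 without the 6 h ethanol array of experiment 1, 4 without the 6 h ethanol array of experiment 3, and 4, of which only XRCC3 and ERCC1 were among the 7, without the 6 h dexamethasone array of experiment 1. XRCC3 and ERCC1 (-0.63, SE 0.16) were the calls that no left-out array ended. Those of PRKDC, APEX1, XRCC6, DDB1 and RAD54L ended without 8 to 11 of the 12 arrays, with adjusted p up to 0.105, and that of MDM4, among the positive ones, without 9 (up to 0.0999). With the experiment as a block 8 differences were positive, beside 18.0% of all genes, and 14 negative, beside 20.4%. The calls it added were positive in BARD1, RAD52 (0.0279) and XPC (0.0407) and negative in EXO1 (0.00557), MSH6 (0.00988), UNG (0.0139), RAD51C (0.0276), XRCC2 (0.0386), MRE11 (0.0438) and BLM (0.0496), with the block's adjusted p in brackets. On the spike scale 4 were positive, beside 9.97% of all genes, and 1 negative, beside 5.58%.

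**Figure D4:**
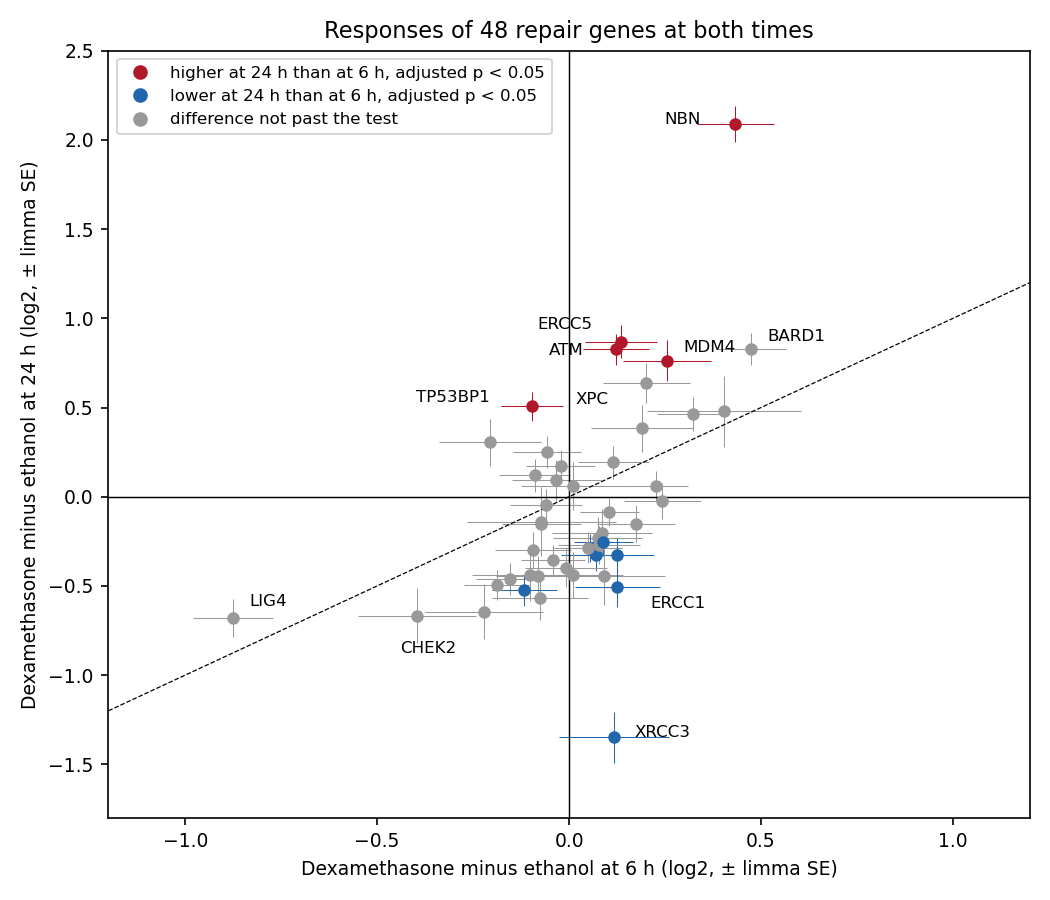
Dexamethasone minus ethanol at 24 h (vertical axis) against the same at 6 h (horizontal axis) for the 48 members, in log2 with limma's standard errors; the dashed line marks equal responses and colour marks members whose responses differed. NBN lies far above the line and XRCC3 far below it, while LIG4 lies near it at -0.68 at 24 h and -0.88 at 6 h.

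The ethanol groups of 24 h and 6 h differed little in the members. They lay in different array batches, so time in culture and batch cannot be told apart in this comparison. Between ethanol at 24 h and ethanol at 6 h limma called none of the 48 members, beside 0.201% of all tested genes called higher and 0.231% called lower at 24 h. An unadjusted p of 0.05 was passed by 8 of the 48 members and by 1585 of all 9947 tested genes. The differences ran from -0.52 in FANCC to 0.38 in LIG4, with a median of 0.04. That of FANCC was larger than its difference of -0.44 between dexamethasone and ethanol at 24 h.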

How the data were processed

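The authors deposited 1 log2 expression value per probe set and array; the submitters' processing notes name GCRMA and R 2.6, and no source used here gives the settings. GCRMA corrects background by probe sequence and makes array distributions alike, so a change shared by most transcripts would not appear. Of 54675 probe sets, 41091 carried 1 gene symbol in the platform annotation, 1801 several and 11721 none, and 62 were controls. The 23265 probe sets that reached a log2 of 4 on 3 or more arrays were fitted with a group-means model on all 12 arrays in limma 3.58.1 (R 4.3.3; 8 residual degrees of freedom, empirical Bayes with 2.707 prior degrees of freedom). Benjamini-Hochberg adjustment ran over all of them, and an adjusted p under 0.05 was a call. Errors are limma's standard errors (n = 3 arrays per group), and p values rest on the spread between independent experiments in 1 line. In simulated data 100 of 23265 probe sets were changed by a log2 of 0.5 and 100 by 1. At 24 h 34% and 78% of these were called. The measured data held far more calls at 24 h (23.9% of tested genes higher and 28.1% lower), which makes the adjusted threshold looser. The simulated shares therefore do not give the share of changes found here.

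The experiment numbers pair the samples: same-numbered arrays correlated after removal of group means at r of 0.238 to 0.628, and no other pair exceeded 0.05. The block by experiment, nested in time, is given where it changes a member's call or a count of calls given above.

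The members and gene lists were chosen with earlier results of these data known. Per-array values are given for up to 3 members per pathway with the smallest p at 24 h among those called, up to 6 at 6 h, up to 4 for the difference between times, and up to 5, 4 and 4 genes of the repair, p53 and replication lists. BRCA1, MRE11, RAD50, MDM2, CHEK2, ATR and PRKDC were added, after their values were seen, as partners of these. Sequences are RefSeq's (GRCh38.p14). Alternatives were the block, other filters, scalings and priors, only the arrays of 1 time, the mean of a gene's probe sets, and leaving out each array.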

Additional observations from a re-analysis of the deposited data

Results flagged for a closer look

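In 12 members the response to dexamethasone differed between 24 h and 6 h by limma's test of the difference itself, with the 6 h comparison crossing array batches. They were 5 positive (10.4% of the members, against 12.3% of all tested genes) and 7 negative (14.6%, against 14.8%), shares no higher than those of all genes. Positive differences (log2) were 1.66 in NBN, 0.73 in ERCC5, 0.71 in ATM, 0.60 in TP53BP1 and 0.51 in MDM4. Negative ones were -1.46 in XRCC3, -0.63 in ERCC1, -0.45 in PRKDC, -0.41 in APEX1, -0.40 in RAD54L, and -0.34 in both DDB1 and XRCC6. The negative differences of RAD54L, XRCC6, PRKDC, APEX1, ERCC1 and DDB1 and the positive one of MDM4 were not called on the spike scale, where their adjusted p ran from 0.103 to 0.546.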

How the results depend on the processing

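All 31 members called in a comparison gave 46 called values, and 30 of these stayed called without any 1 array. The block by experiment ended none of the 46, and no filter ended 7, a filter at 6 none, median centring 1, cyclic loess 9, a trended, robust variance prior 1, only the arrays of that time 4 and the mean of a gene's probe sets 2 (ATM at an adjusted p of 0.0582 and PRKDC at 0.0695, both in the difference between the times). The spike scale ended 13 and reversed 2, NBN at 6 h (-0.035) and POLB at 24 h (-0.087). At 6 h 2 members were higher, against 1 with no filter, 0 on the spike scale (36 members of either direction at an unadjusted p under 0.05) and 0 with only the 6 h arrays, and 1 was lower, against 2 with the replicate block and 32 on the spike scale. At 24 h 10 were higher, against 4 on the spike scale. In the difference between the times 5 were positive, against 8 with the replicate block, and 7 negative, against 14 with the block, 1 on the spike scale and 3 with cyclic loess. Without 1 array the counts ran from 1 to 3 higher and stayed at 1 lower at 6 h, from 8 to 12 higher and 16 to 23 lower at 24 h, and from 4 to 6 positive and 2 to 10 negative in the difference. Where a value's cause is not given, it was not tested. With 3 arrays per group, small changes and dim probe sets limit what could be called.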

Other observations

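Several probe sets were tested for 25 members. Of the 15 such members called at 24 h, 14 had another probe set called in the same direction and none had one called in the opposite direction; NBN was the one with a probe set of opposite sign, at -0.004, beside 4 that rose. Of the 10 uncalled ones, MSH3 alone had another probe set that was called.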
